A study of Rattus norvegicus with 6 samples.

Results

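The Hippo pathway genes described here are 10 of the 17273 genes listed in the deposited table of an experiment on cultured rat nucleus pulposus cells, which fill the soft centre of the discs between the vertebrae. They were chosen by name, as the rows whose gene symbol was Yap1, Wwtr1, Tead1, Lats1, Lats2, Amotl1, Amotl2, Ccn1, Ccn2 or Ankrd1. All 10 rows were found, and 9 of them passed the filter on low counts that left 13747 genes to test, while Ankrd1 did not. The control group was 3 libraries of untreated cells. The lactate group was 3 libraries of cells given 10 mM lactate for 8 h. Per the labels, all cells were wild type, from male Sprague Dawley rats, and were grown in serum-containing DMEM. The labels give neither the age of the animals nor the form of the lactate, acid or salt. They also leave unsaid whether replicate libraries stem from separate cultures or rats, so the p-values measure a spread between libraries that may be technical.

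The Hippo pathway is a chain of protein kinases that keeps a pair of related coactivators, YAP (gene Yap1) and TAZ (gene Wwtr1), out of the nucleus. The kinases LATS1 and LATS2 phosphorylate YAP and TAZ, which are then held in the cytoplasm or degraded. Unphosphorylated YAP and TAZ enter the nucleus, bind DNA through transcription factors of the TEAD family and switch on targets such as Ccn1, Ccn2 and Ankrd1. Angiomotins, among them the products of Amotl1 and Amotl2, bind YAP and TAZ at cell junctions and actin filaments. Lats2 and Amotl2 are themselves targets of YAP and TAZ, which gives the pathway negative feedback. The pathway answers to cell shape, stiffness and density, and CCN2 is a matrix protein with known roles in the disc. Phosphorylation and location of proteins, by which the pathway acts, were not measured here.

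Promoter sequence was taken from RefSeq (assembly GRCr8) for the 7 members that the sequence table holds. Tead1, Lats2 and Ankrd1 were not among them. TEAD factors bind the letters GGAATG, so the 250 bases before the start of each gene were searched for these letters on both strands. They stood in the windows of 4 of the 7 members. Counted by window, this was 4 of the members' 11, of which Amotl1 has 5, and 12.1% of all 33469 windows of the same length. The 4 windows are printed 5′ to 3′ in the direction of the gene, because they belong to the main targets (Ccn2, Ccn1), to a feedback gene (Amotl2) and to YAP itself, and the capitals mark GGAATG or its reverse complement CATTCC. The window of Ccn2 is chr1:22624615-22624864, minus strand. That of Ccn1 is chr2:237225690-237225939, minus strand. That of Amotl2 is chr8:112182376-112182625, plus strand, and that of Yap1 is chr8:13451438-13451687, minus strand.
Ccn2: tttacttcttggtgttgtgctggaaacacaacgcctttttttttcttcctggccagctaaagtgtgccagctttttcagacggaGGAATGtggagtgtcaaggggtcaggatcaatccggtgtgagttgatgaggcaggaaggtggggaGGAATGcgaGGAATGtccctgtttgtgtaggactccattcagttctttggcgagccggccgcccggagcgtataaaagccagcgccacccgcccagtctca
Ccn1: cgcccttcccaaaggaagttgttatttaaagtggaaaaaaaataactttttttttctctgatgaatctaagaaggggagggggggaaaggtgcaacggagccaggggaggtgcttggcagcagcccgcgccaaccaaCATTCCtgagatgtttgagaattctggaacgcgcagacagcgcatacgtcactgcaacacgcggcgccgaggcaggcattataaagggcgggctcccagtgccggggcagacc
Amotl2: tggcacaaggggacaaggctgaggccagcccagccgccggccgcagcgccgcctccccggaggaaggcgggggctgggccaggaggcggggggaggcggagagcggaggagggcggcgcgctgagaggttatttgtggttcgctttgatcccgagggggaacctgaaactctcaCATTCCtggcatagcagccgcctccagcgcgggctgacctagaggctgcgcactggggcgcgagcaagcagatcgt
Yap1: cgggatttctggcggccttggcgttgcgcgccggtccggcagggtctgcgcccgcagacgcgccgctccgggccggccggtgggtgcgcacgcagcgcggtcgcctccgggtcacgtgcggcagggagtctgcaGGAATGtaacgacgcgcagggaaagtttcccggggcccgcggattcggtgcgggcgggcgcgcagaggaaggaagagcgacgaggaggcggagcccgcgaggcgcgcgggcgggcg
Ccn2 held 3 copies, which began 166, 101 and 92 bases before the start. Ccn1, Amotl2 and Yap1 held 1 copy each, which began 113, 76 and 116 bases before it. The windows of Wwtr1, Lats1 and Amotl1 held none. The AP-1 letters TGANTCA were found in the overlapping windows of 1 pair of adjacent starts of Amotl1 and in no other member, against 6.34% of all windows, and the CArG box, bound by SRF, was found in 0 of the 11 windows of the members, against 1.5% of all windows. A match is a description of the letters, and whether a factor bound there was not measured.

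Libraries held between 30291357 and 38989574 counts. Levels are given as CPM, counts brought to a common total with TMM factors, which assume that the bulk of genes does not change, and as the deposited FPKM, counts divided by transcript length and library total. The 2 scales part here. The TMM factors lay between 1.327 and 1.363 in control and between 0.702 and 0.806 in lactate libraries, and the log2 fold change (lactate over control) of the median tested gene was −0.10 after TMM scaling and −0.96 when libraries were brought to equal totals. Fold changes below are therefore given on both scales, and within-library ratios and shares stand beside them. No library-wide scaling factor touches these ratios and shares, but a trend of fold change on gene length or level can still move them.

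Of the nucleus pulposus and notochord markers, 7 were tested, and 2 were higher, 3 lower and 2 not called with TMM factors, where 31.4% of all tested genes were higher and 34.6% lower (1 higher and 5 lower with library totals, against 12.5% and 61.8%). Cd24, a surface protein of these cells, rose from 29.2 ± 3.18 to 146 ± 13.9 CPM (SD, n = 3) and was higher on both scales. Pax1, a transcription factor of the developing disc, fell from 235 ± 42.1 to 128 ± 27.0 CPM, and Foxa2 and Cdh2 were lower too, all 3 on both scales. Ca12 was called higher with TMM factors only, at 33 control and 50 lactate counts, and Krt8 and Foxf1 were not called with TMM factors and were lower with library totals. Tbxt (brachyury) had 12 control and 0 lactate counts, Krt19 9 and 0, and Krt18, Shh and Noto were not analysed here. All 9 markers of this list that are in the table are given here. Of the 5 cartilage matrix markers, Acan, the disc proteoglycan, made 2393 ± 159 and 2290 ± 183 CPM and was not called with TMM factors (−0.06), but was lower with library totals (−0.92, edgeR adjusted p = 6.9e-05), and its FPKM went from 471 ± 37.9 to 248 ± 28.4. It was called higher with the trend of fold change on length removed (0.53) and lower with the trend on level removed (−1.40). Sox9, its transcriptional activator, was 2.72-fold higher with TMM factors and not called with library totals, Comp, a matrix protein, was 2.76-fold higher and higher on both scales, and Matn3 and Col2a1, the latter with 39 and 55 counts, were not called on either.

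Of the 6 macrophage markers, 4 were in the table, and their sum was 9.61 to 10.7 CPM in control and 4.09 to 5.4 after lactate, without overlap. Of all tested genes, 72.2% had no overlap between the groups in CPM. Cd14 fell 3.30-fold and was lower on both scales, and Cd68, at 76 and 109 counts, was called higher with TMM factors only. The 3 endothelial markers in the table made 0.116 to 0.488 CPM in control and 0.21 to 0.68 after lactate, and Vwf, the 1 tested, was not called. Of the 6 annulus fibrosus and fibroblast markers in the table, 3 were higher and 2 lower with TMM factors, 3 and 3 with library totals, and 0 and 2 with the trend of fold change on level removed. Their summed level lay at 32643 to 38047 CPM without and 107132 to 155708 with lactate, most of it Col1a1. Of the 7 smooth muscle and pericyte markers in the table, 4 were higher and 2 lower with TMM factors and 2 and 5 with library totals, and they summed to 1550 to 1922 CPM without and 1929 to 2369 with lactate. Among all tested genes, 31.4% were higher and 34.6% lower with TMM factors and 12.5% and 61.8% with library totals. With the trend on level removed these shares were 32.4% and 31.3%. The part of these marker shifts in the results below was not tested. In bulk samples, fewer cells of a type and less RNA per cell cannot be told apart.

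All 9 tested members differed between the groups with TMM scaling (edgeR adjusted p under 0.05), where 66.0% of all tested genes did. Yap1, Tead1, Lats1, Amotl1 and Amotl2 were lower after lactate, 5 of 9 against 34.6% of all tested genes. Wwtr1, Lats2, Ccn1 and Ccn2 were higher, 4 of 9 against 31.4% of all. With library totals, 7 of 9 were lower and 0 higher, against 61.8% and 12.5% of all tested genes. The 5 lower genes were lower on both scales, while the 4 higher ones were lower (Wwtr1, Ccn1) or not called (Lats2, Ccn2) with library totals. With the trend of fold change on length removed, 4 of 9 were higher and 4 lower (all tested genes: 33.5% and 30.5%), and with the trend on level removed 0 were higher and 7 lower (32.4% and 31.3%). On the deposited FPKM the groups did not overlap in 9 of the 10 members, Ccn2 being the exception, and in 78.6% of all tested genes. The median log2 fold change of the 9 was −0.65 under TMM scaling, beside −0.10 for all tested genes, and −1.51 with library totals, beside −0.96. The authors' deposited selection holds 6359 of the 17273 genes, and 2 of the 10 members, Tead1 and Ankrd1. The members left out had authors' log2 fold changes between −0.91 (Amotl1) and 0.89 (Ccn2). In the authors' own test, the adjusted p of each of the 10 members was 0.01 or less, so absence from the selection does not mean no change.

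**Figure D1:**
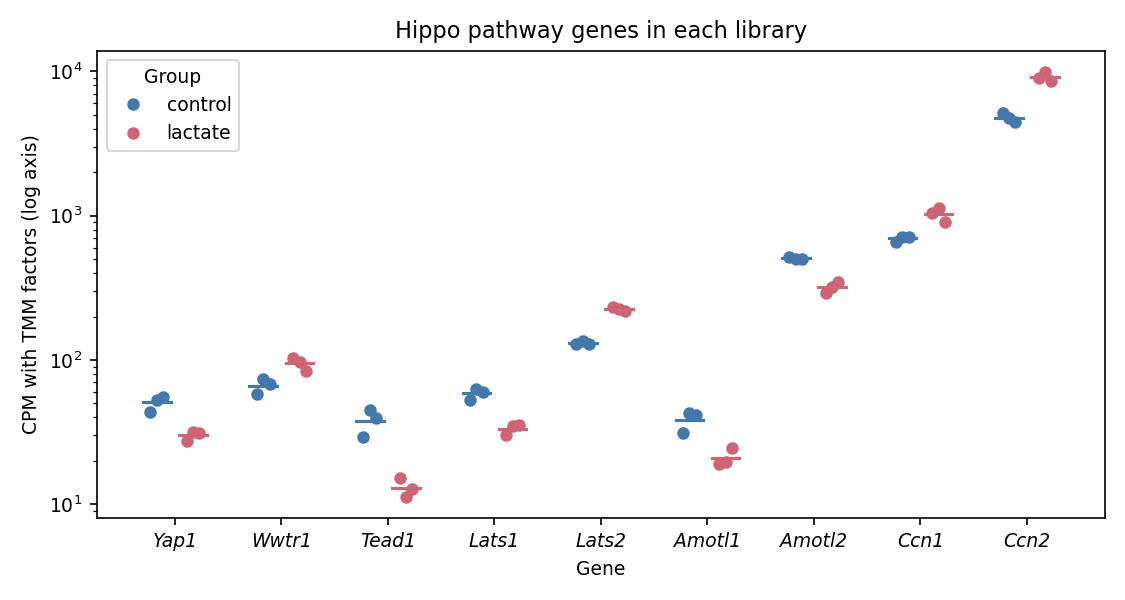
Levels of 9 Hippo pathway genes in CPM with TMM factors (log axis), 1 point per library, 3 control (blue) and 3 lactate (red) libraries, with a line at each group's mean. No gene shown has overlapping groups on this scale, where 72.2% of all tested genes had none. Yap1, Tead1, Lats1, Amotl1 and Amotl2 sit lower after lactate, and Wwtr1, Lats2, Ccn1 and Ccn2 higher, although these 4 were not higher with library totals. Ankrd1 is left out because a log axis cannot show its 0 values.

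Of the coactivators, Yap1 fell on both scales, while the direction of Wwtr1 changed with the scale. Yap1 was at 43.8, 53.0 and 55.7 CPM in the control libraries and at 27.6, 31.7 and 31.1 in the lactate libraries. The groups did not overlap, as in 72.2% of all tested genes. The fall was 1.69-fold. On the log2 scale this was −0.75 ± 0.12 (SE) with an edgeR adjusted p = 0.00073, and −1.61 ± 0.14 with library totals (edgeR adjusted p = 2.2e-05). Wwtr1 was at 58.0, 73.4 and 67.8 CPM in control and at 104, 97.5 and 84.1 in lactate libraries, all 3 above every control. Its log2 fold change was 0.52 ± 0.13 (edgeR adjusted p = 0.0062) with TMM factors but −0.34 ± 0.12 (edgeR adjusted p = 0.026) with library totals. The balance between the 2 coactivators does not depend on a library-wide scaling factor. Per length, YAP and TAZ transcripts were close to equal in control cells, where Yap1 made 46.9% ± 1.6 of their summed FPKM (SD, n = 3), and Yap1 made 26.8% ± 3.27 after lactate. The ratio of Yap1 to Wwtr1 counts was 0.755, 0.723 and 0.822 in control and 0.265, 0.325 and 0.37 in lactate libraries, 2.42-fold lower. In an exact two-sided permutation test this gave p = 0.10, the smallest that 3 libraries against 3 allow (0.13 adjusted over the 4 ratios tested). Summed FPKM of the pair went from 99.4 ± 10.2 to 56.5 ± 1.24. FPKM follows library totals, where the median tested gene had a log2 fold change of −0.96. In mean CPM with TMM factors the pair moved in opposite directions, Yap1 from 50.8 to 30.1 and Wwtr1 from 66.4 to 95.3.

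**Figure D2:**
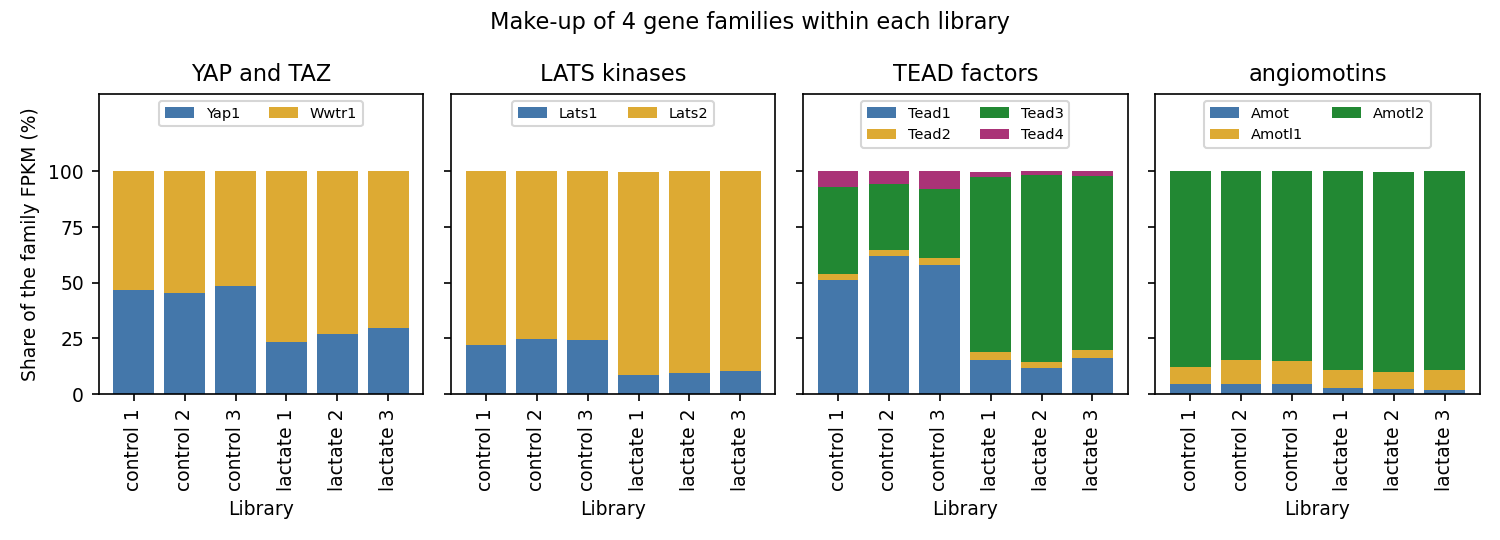
Share of each gene (percent, y axis) in the summed deposited FPKM of its family, 1 bar per library, for YAP and TAZ, the LATS kinases, the TEAD factors and the angiomotins. After lactate Yap1 goes from 46.9% to 26.8%, Lats1 from 23.7% to 9.42% and Tead1 from 57.0% to 14.3% of its family, while Amotl2 stays the main angiomotin.

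Tead1, one of 4 paralogous DNA-binding partners of YAP and TAZ, had the steepest fall of the 9 tested members on both scales. It was at 29.3, 45.0 and 39.4 CPM in control and at 15.1, 11.3 and 12.7 in lactate libraries. The lowest control library thus stayed above the highest lactate library. Groups did not overlap in CPM in 72.2% of all tested genes. The change was 2.91-fold, or −1.54 ± 0.19 on the log2 scale (edgeR adjusted p = 0.00012), and −2.40 ± 0.20 with library totals. The other TEAD genes, read from the list of TEAD paralogs and VGLL cofactors, did not follow it as a group. Tead3 was at 83.4, 80.9 and 79.2 CPM in control and at 288, 308 and 229 in lactate libraries, a rise of 1.76 ± 0.12 on the log2 scale (edgeR adjusted p = 6.6e-06) that was still 0.89 with library totals. Tead4 fell by 1.23 ± 0.19, and Tead2, at 2.47 ± 0.377 CPM in control (SD, n = 3), differed by 0.68 ± 0.24 with TMM factors and −0.18 with library totals, where it was not called. Tead2 and Tead4 were named after their values were seen, to complete the family. Per length, Tead1 made 51.2 to 61.8% of all TEAD FPKM in control and 11.5 to 16.2% in lactate libraries, and Tead3 29.9 to 39.2% and 78.3 to 84.1%. Per length, the leading TEAD transcript was therefore Tead1 in each control library and Tead3 in each lactate library. This switch rests on the lengths behind the deposited FPKM. By counts, Tead3 was above Tead1 in every library, with a Tead1 to Tead3 ratio of 0.351 to 0.556 in control and 0.0367 to 0.0555 after lactate. The ratio of Tead1 to Tead3 counts, chosen after the values were seen and so not tested, was 9.7-fold lower after lactate. Summed TEAD FPKM was 54.7 ± 6.02 in control and 41.5 ± 2.29 in lactate libraries, without overlap, as in 78.6% of all tested genes. FPKM follows library totals, where the median tested gene had a log2 fold change of −0.96. In CPM with TMM factors, Tead3 gained more than Tead1 and Tead4 together lost, so the TEAD sum was not lower there. The direction of the sum thus depends on the scale.

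The VGLL proteins are cofactors that bind TEAD factors through the same surface as YAP and TAZ, and VGLL4 is known as an antagonist of YAP. Of the 6 TEAD and VGLL genes tested besides Tead1, 3 were higher and 3 lower (median log2 fold change −0.19), where 31.4% and 34.6% of all tested genes were. With library totals 1 was higher and 3 lower (−1.04), against 12.5% and 61.8% of all. Vgll4 rose from 13.2 ± 1.14 to 29.0 ± 3.09 CPM (SD, n = 3), by 1.14 ± 0.14 (edgeR adjusted p = 0.00011), and was not called with library totals (0.27). Vgll3 fell by 1.05 ± 0.14. Vgll2 fell by 2.44 ± 0.27, from 4.54 to 0.833 CPM, and both were lower with library totals as well.

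Of the 2 LATS kinases, which phosphorylate YAP and TAZ, Lats1 fell on both scales and Lats2 was called lower on neither. Lats1 was at 52.5, 63.4 and 59.8 CPM in control and at 30.4, 34.6 and 35.5 in lactate libraries. The log2 fold change was −0.81 ± 0.12 (edgeR adjusted p = 0.00034) and −1.66 ± 0.14 with library totals. Lats2, also a target of YAP and TAZ, was at 130, 136 and 129 CPM in control and at 234, 227 and 217 in lactate libraries. It was 1.72-fold higher with TMM factors (0.78 ± 0.09, edgeR adjusted p = 6.7e-05). With library totals Lats2 was at −0.08 ± 0.09 (95% interval −0.28 to 0.11, edgeR adjusted p = 0.41), and its FPKM of 34.2 to 35.3 in control libraries and 31.0 to 34.1 after lactate lay close together. Per length Lats2 was the main LATS transcript in all 6 libraries, with 76.3% ± 1.51 of the pair in control and 90.6% ± 0.976 after lactate (SD, n = 3). The ratio of Lats1 to Lats2 counts was 0.403 to 0.467 in control libraries and 0.13 to 0.164 after lactate, 3.00-fold lower (exact permutation p = 0.10, 0.13 adjusted over the 4 ratios). Both genes are among the 1375 longest tested genes by relative length, whose log2 fold changes had a median of −0.60 and of which 52.1% were lower. With the trend of fold change on length removed, the log2 fold change of Lats1 was −0.18 ± 0.10, which missed the threshold (edgeR adjusted p = 0.16), and that of Lats2 was 1.25.

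The angiomotin genes fell. Amotl2, at 515, 498 and 504 CPM in control, was at 293, 323 and 350 in lactate libraries. The control libraries were close together (SD 8.94 CPM), and the 3 lactate libraries were all lower. Such a lack of overlap in CPM was seen in 72.2% of all tested genes. The log2 fold change was −0.65 ± 0.09 (edgeR adjusted p = 0.00031), −1.51 ± 0.12 with library totals and −0.26 ± 0.09 (edgeR adjusted p = 0.031) with the length trend removed. Amotl2 is among the 1375 tested genes with the highest level, of which 16.2% were lower and 67.4% higher. Amotl1 was at 31.2, 43.0 and 41.6 CPM in control and at 19.0, 19.5 and 24.6 in lactate libraries. It fell 1.83-fold (−0.87 ± 0.16, edgeR adjusted p = 0.0015; −1.72 with library totals). The founding member of the family, Amot, fell from 48.8 ± 0.308 to 14.0 ± 1.64 CPM (SD, n = 3), by 1.80 ± 0.12 on the log2 scale (named after its values were seen). The ratio of Amotl1 to Amotl2 counts overlapped between the groups, at 0.0605 to 0.0863 in control libraries and 0.0604 to 0.0703 after lactate (log2 difference −0.22 ± 0.17, exact permutation p = 0.30, also 0.30 adjusted over the 4 ratios). Without control library 1, which had the lowest Amotl1, the difference was −0.38 and the groups no longer overlapped. With the trend on level removed, Amotl1 was at −0.90 and Amotl2 at −1.53, the opposite order to that with TMM factors. Summed FPKM of the 3 genes, which follows library totals, went from 187 ± 3.08 to 62.7 ± 9.87.

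**Figure D3:**
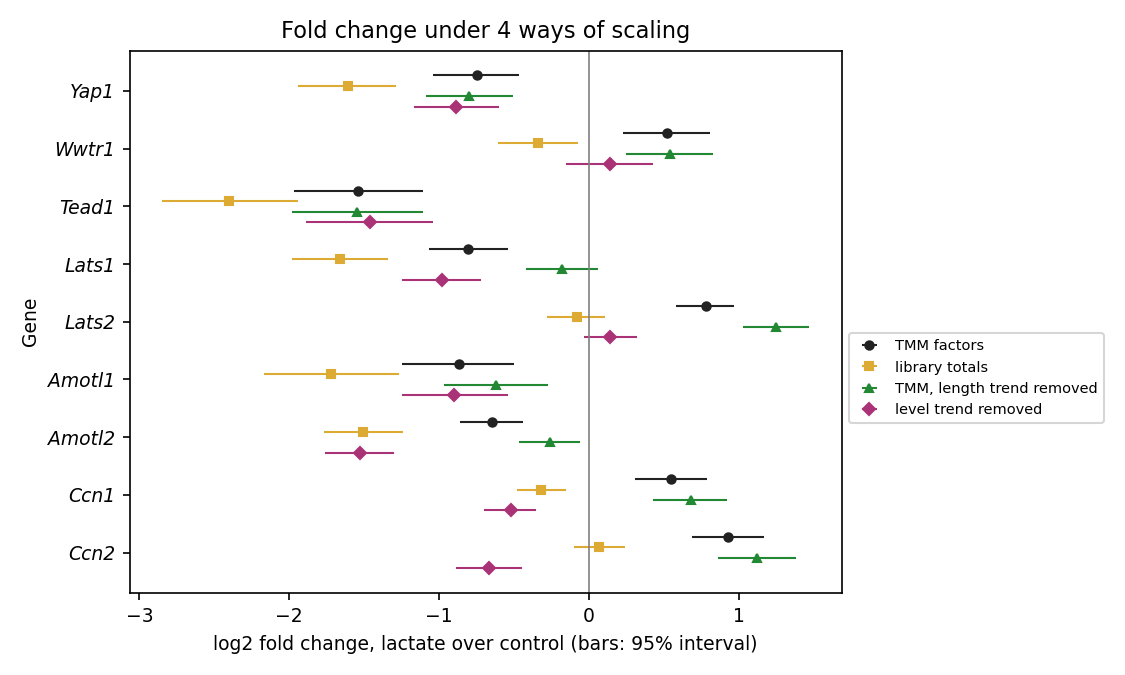
Log2 fold change of lactate over control with its 95% interval for 9 Hippo pathway genes (y axis) under 4 ways of scaling: TMM factors (black), library totals (yellow), TMM with the length trend removed (green) and the trend on level removed (purple). Yap1, Tead1, Amotl1 and Amotl2 lie below 0 under all 4, Lats1 under all 4 but with an interval across 0 once the length trend is removed, and Wwtr1, Lats2, Ccn1 and Ccn2 change side or lose their call.

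Of the targets, Ccn2, which encodes connective tissue growth factor, was by far the most abundant member. Its counts made it 5173, 4780 and 4435 CPM in control and 8989, 9919 and 8526 in lactate libraries, and its FPKM was 2861, 2567 and 2429 in control and 2611, 2807 and 2782 in lactate libraries. The groups were apart on the first scale, as in 72.2% of all tested genes, and overlapped on the second, where 78.6% were apart. The log2 fold change was 0.93 ± 0.10 with TMM factors (edgeR adjusted p = 7.3e-05) and 0.07 ± 0.07 with library totals (95% interval −0.10 to 0.24, edgeR adjusted p = 0.43). Ccn1, a matrix protein of the same family also known as CYR61, was at 662, 714 and 715 CPM in control and at 1037, 1126 and 899 in lactate libraries. Its log2 fold change was 0.55 ± 0.10 with TMM factors (edgeR adjusted p = 0.0015) and −0.32 ± 0.07 with library totals (edgeR adjusted p = 0.0042). Both genes are among the 1375 tested genes with the highest level, whose log2 fold changes had a median of 0.80 under TMM scaling. With the trend on level removed, Ccn1 was at −0.52 and Ccn2 at −0.67, both called lower (limma adjusted p = 0.0004 and 0.00034). The ratio of Ccn1 to Ccn2 counts was 0.128 to 0.161 in control libraries and 0.105 to 0.115 after lactate, 1.31-fold lower without overlap (exact permutation p = 0.10, 0.13 adjusted over the 4 ratios). With the trend on level removed the order was the opposite, as Ccn1 (−0.52) then fell less than Ccn2 (−0.67).

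Ankrd1, a YAP target that encodes a cardiac ankyrin repeat protein, was barely detected. It had 15, 8 and 22 counts in the control libraries and 0 in all 3 lactate libraries. A count of 0 in 1 of these libraries allows up to 3 counts, or 0.105 to 0.141 CPM, for counting error, and the control libraries were at 0.155 to 0.467 CPM. Against 3 counts over the lactate group, Ankrd1 was 7.47-fold lower with TMM factors and 13.5-fold lower with library totals. These folds take the control counts as exact, although they ranged from 8 to 22, so they are not strict lower limits. It fell below the filter, and with no filter it was called (edgeR adjusted p = 0.0097).

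The other genes of the CCN family, secreted matrix proteins that are not counted among the classic YAP targets, were lower after lactate. Ccn4 went from 49.0, 55.5 and 52.2 CPM in control to 8.75, 10.3 and 8.49 in lactate libraries, a 5.70-fold fall (−2.51 ± 0.13, edgeR adjusted p = 2.2e-06). Ccn5 fell by 1.72 ± 0.24 and Ccn3 by 1.17 ± 0.17 on the log2 scale. All 3 were lower with TMM factors (34.6% of all tested genes), with library totals (61.8% of all) and with the length or the level trend removed (30.5% and 31.3%). Their groups did not overlap in CPM, as in 72.2% of all tested genes. Ccn6 had 3 control and 7 lactate counts and was not tested. Within the family, Ccn1 and Ccn2 together held most of the FPKM, and the share of Ccn4 went from 1.15% ± 0.117 to 0.111% ± 0.00335 (SD, n = 3).

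A wider look at YAP and TAZ targets used a published signature of 22 genes, of which 21 were in the table and 20 were tested. The signature shares 5 genes with the 10 members, among them Ankrd1, which was not tested. Of the 20, 5 were higher, 8 lower and 7 not called, against 31.4% higher and 34.6% lower of all tested genes, and the median log2 fold change was −0.14, beside −0.10 for all tested genes. With library totals 1 was higher and 15 lower (median −0.99, beside −0.96 for all). The median thus stood near that of all tested genes on these 2 scales. It did not under the other 2 settings. With the length trend removed 9 were higher and 8 lower (33.5% and 30.5% of all) and the median was 0.33, and with the level trend removed 3 were higher and 13 lower (32.4% and 31.3% of all) and the median was −0.68. Of the 16 tested signature genes that are not members, 2 were higher and 7 lower with TMM factors. Gadd45a, a stress gene induced on growth arrest and DNA damage, rose from 89.2 ± 15.2 to 3037 ± 557 CPM (SD, n = 3; 5.09 ± 0.20, edgeR adjusted p = 1.1e-06). Dock5, an activator of the GTPase Rac, fell by 1.94 ± 0.12, and Asap1, which acts on the GTPase Arf, fell by 1.56 ± 0.11. Fjx1, the homologue of a fly gene of planar polarity, fell by 2.97 ± 0.32. These 4 kept their direction and call with library totals and with the length or the level trend removed.

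Among the kinase core and its regulators, more genes were lower than higher. The list also holds Csnk1d, Csnk1e and Btrc, which act on YAP and TAZ after LATS, and the LATS-related kinases Stk38 and Stk38l. Csnk1d and Csnk1e are 2 of the 6 genes called higher. Of 30 tested genes, 15 were lower, 6 higher and 9 not called (median log2 fold change −0.57), where 34.6% and 31.4% of all tested genes were. With library totals 24 were lower and 2 higher (median −1.41), against 61.8% and 12.5% of all. With the length trend removed 13 were lower and 8 higher (median −0.24; 30.5% and 33.5% of all), and with the level trend removed 18 were lower and 5 higher (median −0.96; 31.3% and 32.4% of all). Nf2, the tumour suppressor merlin that brings LATS to the membrane, went from 46.4, 52.8 and 56.7 CPM in control to 6.12, 6.68 and 4.82 in lactate libraries. This was an 8.87-fold fall (−3.15 ± 0.16, edgeR adjusted p = 2.2e-06), and −4.02 with library totals. Fat4, a giant cadherin at the cell surface, fell by 2.83 ± 0.17 and Wwc2, a partner of LATS related to KIBRA, by 1.92 ± 0.10. Rassf1, a scaffold for the MST kinases, went the other way, from 19.7 ± 3.34 to 92.7 ± 9.5 CPM (SD, n = 3; 2.23 ± 0.15, edgeR adjusted p = 5.8e-06), and was at 1.37 with library totals. These 4 genes kept direction and call under the length and level settings too. In the STRIPAK complex, a phosphatase that acts on the MST kinases, 4 genes were higher and 6 lower of 10 (median −0.51), against 31.4% and 34.6% of all tested genes, and with library totals 0 higher and 6 lower (−1.35), against 12.5% and 61.8%. With the length trend removed 4 were higher, 3 lower and 3 not called (median −0.16), against 33.5% higher and 30.5% lower of all. With the level trend removed 4 were higher and 6 lower (−0.77), against 32.4% and 31.3%. Ppp2r1a (1.07 ± 0.09) and Ppp2ca (0.92 ± 0.09), the scaffold and catalytic subunits of protein phosphatase 2A, and Strn4 (0.94 ± 0.11), a striatin, were called higher with TMM factors and not called with library totals. Sike1, a STRIPAK component, fell by 1.63 ± 0.17 and was lower on both scales.

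**Figure D4:**
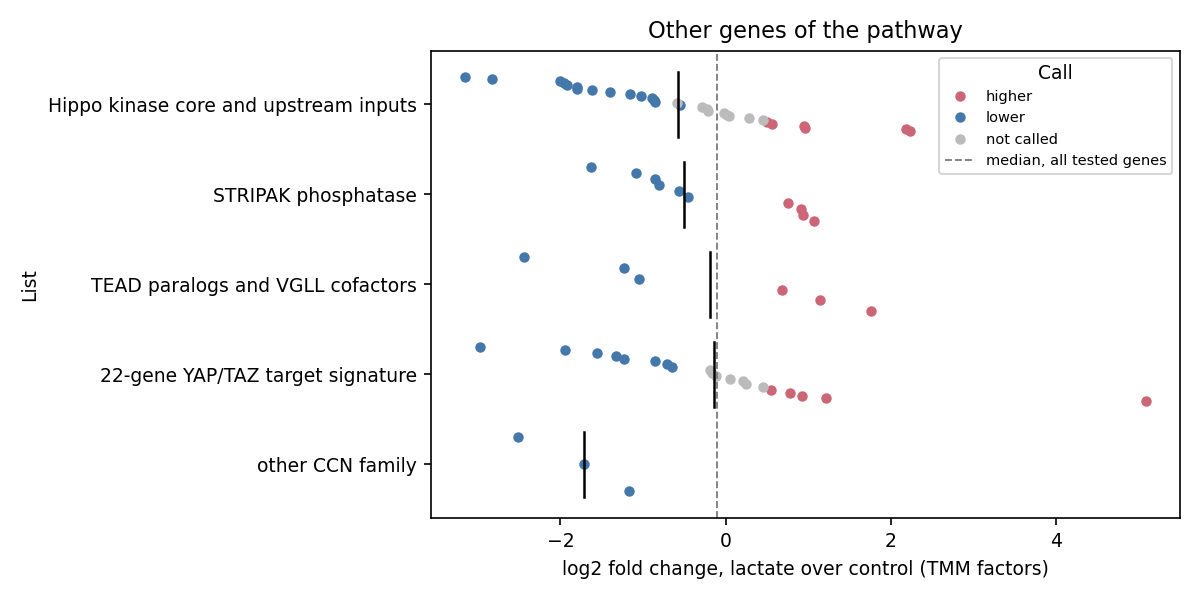
Log2 fold change with TMM factors (x axis) of each tested gene in 5 lists of the pathway (y axis), coloured by call, with a black line at the list's median and a dashed line at the median of all tested genes (−0.10). The list of the kinase core and its regulators holds 15 lower genes and 6 higher of 30. With the length trend removed it holds 13 and 8, and with the level trend removed 18 and 5. The 22-gene target signature has a median of −0.14 on this scale (0.33 with the length trend removed and −0.68 with the level trend removed). All 3 tested genes of the other CCN family are lower. Of all tested genes, 34.6% were lower and 31.4% higher on this scale. These shares were 30.5% and 33.5% with the length trend removed, and 31.3% and 32.4% with the level trend removed.

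In order of level per length, Ccn2, Ccn1 and Amotl2 led in both groups, with mean FPKM of 2619, 461 and 161 in control and 2733, 367 and 56.1 in lactate libraries. Next in control came Wwtr1 (52.8 ± 5.53, SD, n = 3) and Yap1 (46.7 ± 5.21), whose values overlapped, then Lats2 (34.8 ± 0.563) and Tead1 (31.4 ± 6.25), which overlapped as well, then Amotl1 (17.4), Lats1 (10.8) and Ankrd1 (0.233). After lactate the order was Wwtr1 (41.3), Lats2 (32.6), Yap1 (15.1), Tead1 (5.93), Amotl1 (5.23), Lats1 (3.40) and Ankrd1, listed at 0. Lats2 thus stood above Yap1 after lactate and below it in control, and Tead1 overlapped with Amotl1. Nearest in profile to Yap1 over the 6 libraries, by Euclidean distance between centred log2 CPM among 12092 genes, were Heg1 (distance 0.102), Gripap1 (0.12) and Kat5 (0.126). Nearest to Ccn1 were Rattus_newGene_11947 (0.0501), Nudt21 (0.0822) and RGD735065 (0.094), and nearest to Ccn2 were Ndufs8 (0.0734), Nsun5 (0.0757) and Atf1 (0.0871).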

How the data were processed

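RNA was sequenced from 3 control and 3 lactate libraries of rat nucleus pulposus cells. Per the file headers, the authors deposited raw read counts, FPKM and their own log2 fold changes and p-values. How reads were aligned and counted, and whether by strand, is not given in the sources used here. GRCm38 and mm10, named in the submitters' processing notes, are mouse builds, although the tables use rat names, so the genome aligned to was not settled and no coordinates of gene bodies are given. Genes with close paralogs or overlapping neighbours are uncertain.

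Counts were tested by quasi-likelihood in edgeR 4.0.16 (R 4.3.3; TMM factors, filterByExpr, group as the only term, Benjamini-Hochberg adjustment over 13747 genes, called at an adjusted p under 0.05). The SE is the log2 fold change divided by the root of F. Intervals are 95%. Other settings tried were RLE, upper-quartile or no factors, no filter, a filter of 10 counts, DESeq2 1.42.0, limma 3.58.1 (voom, or limma-trend on log2 of FPKM plus 1 or plus 0.1), a replicate block, removal of trends on relative length (count over FPKM) or on level (cyclic loess), and each library left out. Of 32 genes with both a library at 0 and one above 1000 counts, 0 are members. Members, lists and tests were chosen with earlier results of these data known. The text names all 10 members, from each pathway list up to 4 called genes with the smallest p, every tested gene of lists with 5 or fewer, and the 3 nearest profiles to Yap1, Ccn1 and Ccn2. Proteins were not analysed here.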

Additional observations from a re-analysis of the deposited data

How the results depend on the processing

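Across 18 alternative settings, Yap1, Tead1, Amotl1 and Amotl2 kept their direction and call in all 18, with log2 fold changes of −1.62 to −0.69, −2.40 to −1.40, −1.72 to −0.62 and −1.53 to −0.26. Lats1 lost its call in 1, with the length trend removed. The 4 genes called higher with TMM factors kept this in 14 of 18 settings each. With library totals, log2(FPKM + 1) and log2(FPKM + 0.1), 0 members were higher, and Wwtr1 was at −0.34, −0.34 and −0.35, Lats2 at −0.08, −0.09 and −0.09 (not called), and Ccn1 at −0.32, −0.33 and −0.33. With the level trend removed 0 members were higher as well, Ccn1 was at −0.52 and Ccn2 at −0.67. Which of these scalings is right was not tested. Over all genes, library totals called 1722 higher and 8492 lower, log2(FPKM + 1) 1781 and 8759, and log2(FPKM + 0.1) 1770 and 8737, in place of 4319 and 4760. In the STRIPAK list these 3 settings called 6 genes each, in place of 10. No sign was seen that the same replicate number pairs libraries. The deviations from the group means correlated by 0.01, 0.04 and 0.08 within numbers and by −0.11 to 0.07 across numbers. With so few libraries this cannot exclude a pairing. With the replicate block 4 members were called higher and 5 lower, as without it, and 4190 and 4624 of all genes. The replicate block left the pair ratios at −1.27, −1.58, −0.22 and −0.39, with exact sign-flip p-values of 0.25 or more. The smallest p that a two-sided sign-flip test of 3 pairs allows is 0.25. Leaving out each library in turn left 4 members higher and 5 or 6 lower, the sixth being Ankrd1, which then passed the filter because the groups were smaller. Over all genes, the same fits called 3922 to 4489 higher and 4091 to 4918 lower. Depth limits Ankrd1, with 45 counts in all control libraries.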
